A study of Mus musculus with 10 samples.

Results

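The expression of 10 genes of the insulin-like growth factor axis was followed in RNA sequencing libraries from the mouse tail bud, where the embryo's body axis is extended, at the age labelled e12point5. They were chosen by symbol: the ligands Igf1 and Igf2, the noncoding RNA H19, the receptors Igf1r, Igf2r and Insr, the receptor substrates Irs1 and Irs2, and the binding proteins Igfbp2 and Igfbp5. All 10 were found among the 38720 gene symbols of the count table, and all 10 passed the filter on low counts that left 16340 tested genes. The question of the series is the role of Lin28 and let-7 while the caudal body elongates. The Lin28a-induced group (n = 4, replicates 2 to 5) was Dox-treated and carried TRE-Lin28a, RLSL-rtTA and FoxD1-Cre. These are a Lin28a transgene under a doxycycline-responsive promoter, an rtTA activator that Cre switches on, and Cre driven by FoxD1. The no-Cre group (n = 3, replicates 6 to 8) was Dox-treated and carried TRE-Lin28a and RLSL-rtTA. The wild-type group (n = 3, replicates 1 to 3) has labels that name no transgene and no doxycycline. Cre activates rtTA only in cells with a history of FoxD1 activity, whereas each library holds RNA of the whole dissected tissue. In such bulk samples fewer cells of a type and less RNA per cell cannot be told apart. The labels do not say whether each library came from a separate embryo. Xist and Ddx3y counts show both sexes in the Lin28a-induced and in the no-Cre group, so each of these groups holds more than 1 embryo. The p-values measure the spread between these samples, and how much of it is technical is not known.

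IGF1 and IGF2 bind the receptor tyrosine kinase IGF1R, and insulin and IGF2 also bind INSR. Both receptors pass their signal through the docking proteins IRS1 and IRS2 to PI3-kinase, AKT and mTOR, a route that drives growth. IGF2R carries no kinase and takes IGF2 to the lysosome for breakdown, while the secreted IGF binding proteins hold the ligands and set their access to receptors. In the mouse embryo Igf2 is transcribed from the paternal chromosome and its neighbour H19 from the maternal one, under a shared imprinting control region, and Igf2r is transcribed from the maternal chromosome. The Lin28a protein binds let-7 precursors and keeps them from maturing, and H19 is the host transcript of miR-675.

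These microRNAs are shown with their seed (bases 2 to 8) in capitals, because the seed is what is matched to the members' messages. The mature sequences are those of RefSeq (GRCm38.p6).
let-7a-5p: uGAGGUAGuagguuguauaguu
let-7g-5p: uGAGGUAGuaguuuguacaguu
miR-675-3p: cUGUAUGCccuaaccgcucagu
miR-675-5p: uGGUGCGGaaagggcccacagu
The seed GAGGUAG is shared by let-7a, b, c, d, e, f, g, i and k and by miR-98, whereas let-7j has GAGGUAU. The pair of miR-675 seeds differ from it and from each other.

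A match to the let-7 seed reads CTACCTC in the sense strand of a message, and only that strand was searched. Of the 9 protein-coding members, 6 held at least 1 such match in the 3′ UTR of their longest annotated transcript, 7 matches in all. Each is given here with the 15 bases before it and the base after it, with the match in capitals.
Igf1: caatatgtcatctacCTACCTCa
Igf1r, first match: ttttcaaacatttatCTACCTCa
Igf1r, second match: tttgccagagttcatCTACCTCt
Igf2r: cacctgctccgtgccCTACCTCa
Insr: tcttctcagtacagtCTACCTCa
Irs2: aaaactaccacagtcCTACCTCa
Igfbp5: cttccccaggtcagcCTACCTCc
In mm10 the matches lay at chr10:87932094-87932100 (Igf1, plus strand), chr7:68229125-68229131 and chr7:68233231-68233237 (Igf1r, plus strand) and chr17:12683037-12683043 (Igf2r, minus strand). The others lay at chr8:3153199-3153205 (Insr), chr8:10986529-10986535 (Irs2) and chr1:72859680-72859686 (Igfbp5), each on the minus strand. An A follows the match in 5 of the 7 sites, the exceptions being the second Igf1r site and the Igfbp5 site. No CTACCTC was found in the 3′ UTRs of Igf2, Irs1 and Igfbp2 or in the H19 transcript. Across all annotated 3′ UTRs of at least 30 bases, 1957 of 20837 (9.39%) held the let-7 match. Several members have long 3′ UTRs, and the share rises with length. Among UTRs within 25% of the same length it was 37.7% for Igf1r (7267 bases), 31.6% for Igf1 (6308 bases), 25.5% for Insr, 24.4% for Igfbp5, 14.2% for Irs2 and 9.3% for Igf2r. The seed of miR-675-3p (GCATACA in a message, found in 8.19% of all UTRs) matched at 2 places in Igf1r and 1 in Insr. Among UTRs within 25% of the same length, 34.8% held it for Igf1r and 22.3% for Insr.
Igf1r, first match: gctcctcatcaccccGCATACAc
Igf1r, second match: gaccgtgaaacatttGCATACAc
Insr: gttcaatgatgtcaaGCATACAt
These lay at chr7:68226906-68226912 and chr7:68227665-68227671 on the plus strand (Igf1r) and chr8:3152117-3152123 on the minus strand (Insr). The miR-675-5p match, CCGCACC, was found in none of the members and in 1.85% of all UTRs. A match is a description of these letters, and binding was not measured.

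H19 and Igf2 lie on chromosome 7, on the minus strand, at chr7:142575529-142578143 and chr7:142650766-142666816 (mm10, GENCODE M21). By sequence, 63.1% of the 32-base words of Igf2 occur in other annotated genes. The gene that shares most with Igf2 is Gm49394, which overlaps it on the same strand, so reads of Igf2 could have been split by the counting. Gm49394 is not analysed here. Of Irs1, 30.6% of the words occur in other genes on either strand, and Gm9747 on the opposite strand shares the most. H19 shares 5.14% with other genes, the most with Mir675, which lies in one of its exons. Mir675 had no count in any library, so the level of miR-675 is not known from these libraries. Igf2os, antisense to Igf2, held counts equal to 1.09% to 1.38% of those of Igf2, and Airn, antisense to Igf2r, 3.9% to 8.83% of those of Igf2r. Whether the counting used strand is not given in the sources used here, so reads of such antisense pairs may be mixed.

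The libraries held 21762668 to 39517946 counts. Lin28a, the induced gene, stood at 605 to 750.3 CPM (a gene's count as a rate per library, on TMM-scaled library sizes) in the Lin28a-induced libraries, 2.64 to 5.03 in no-Cre and 4.45 to 6.16 in wild type. All 8 tail bud markers (among them T, Cdx2 and Msgn1) were detected in each group, with a sum of 1161 to 1516, 1194 to 1264 and 623 to 1244 CPM, the lowest being wild-type replicate 2. T stood at 328 to 459.6 CPM in Lin28a-induced against 291 to 306 in no-Cre libraries. Msgn1 (64.3 to 86.3 against 53.1 to 58.9) and Fgf8 (10.8 to 14 against 8.61 to 9.96) were higher as well. These ranges did not overlap, as for 23.4% of all tested genes, while those of the other tail bud markers did. Cdx2 (40 to 54 CPM) and Tbx6 (56.7 to 123 CPM) were lower in wild type than in all other libraries. The wild-type libraries stood apart from the rest in several respects. Mitochondrially encoded genes took 1.85% to 2.69% of their counts against 0.446% to 0.69% in the other 7 libraries. Wild-type replicate 2 had the highest share and was the least like its own group. Pearson's r of its log2 CPM was 0.977 with replicate 3 and 0.978 with replicate 1, against 0.985 between those. The 5 surface ectoderm markers summed to 454 to 591 CPM in wild type against 148 to 175 elsewhere, and the 6 endothelial markers to 62.2 to 125 against 254 to 355. The 7 macrophage markers in the table summed to 36 to 73.4 CPM in wild type against 85.6 to 121. Of these, Mrc1 alone went the other way. It was at 10.7 to 13 CPM in wild type, 7.55 to 8.96 in no-Cre and 7.69 to 11 in Lin28a-induced libraries. Of the red blood cell markers, Hba-a2 was at 0 to 0.69 CPM in wild type, 90 to 150 in Lin28a-induced and 144 to 234 in no-Cre libraries. Hba-a1 was at 241 to 789 CPM in wild type, 177 to 292 in Lin28a-induced and 280.3 to 452 in no-Cre libraries. The cause of this on-off pattern of Hba-a2 was not tested. In Lin28a-induced against no-Cre libraries, the sums of the 5 neural markers (48.2 to 60.9 against 67 to 82 CPM) did not overlap. They were nearly all Sox2 (47.1 to 59.7 against 65.8 to 81.1 CPM). Pax6, Sox1 and Olig2 reached no more than 0.343 CPM in these groups, and Tubb3 overlapped (0.66 to 0.991 against 0.412 to 0.886). The red blood cell markers ran lower in Lin28a-induced than in no-Cre libraries (3664 to 6017 against 5516 to 9359). Muscle markers summed to no more than 7.88 CPM in any library, with Myod1 at 0 in no-Cre and Myog at 0 in wild type, and hepatocyte markers to no more than 48.1. The cartilage markers overlapped between the groups (139 to 361 CPM over all libraries, with Matn1 at 0 in no-Cre and wild type). Xist and Ddx3y counts mark replicate 5 of the Lin28a-induced group and replicate 7 of the no-Cre group as female and the other libraries as male. The part of these differences in the results below was not tested, except where a fit with sex as a term is given.

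In Lin28a-induced against no-Cre libraries, 3 of the 10 members fell and none rose: H19, Igf2 and Igf2r. In that comparison 2.91% of all tested genes passed (1.15% lower), by edgeR's quasi-likelihood test with Benjamini-Hochberg adjustment over 16340 genes at 0.05, the test behind every adjusted p given for a gene. At an unadjusted p under 0.05 the number was 5 of 10 in either direction, against 16.3% of all tested genes. The groups' CPM ranges did not overlap for 3 of the 10 members, against 23.4% of all tested genes. The median log2 fold change was -0.15 over the members and -0.00 over all tested genes. The members were chosen with earlier results of these data known, so these shares describe the set and do not test it. Against wild type, 5 of 10 members changed in the Lin28a-induced libraries (4 lower, 1 higher), where 49.3% of all tested genes passed, 24.3% higher and 25.0% lower. In no-Cre against wild type, 6 of 10 changed (4 lower, 2 higher), where 42.5% of all tested genes passed, 21.0% higher and 21.4% lower. Ranges did not overlap for 5 and 7 members in the comparisons with wild type, against 49.3% and 52.0% of all tested genes. The members' count is near the share of all genes in the first of these and above it in the second, and neither difference was tested. The comparisons share libraries pairwise, so they are given side by side and are not independent of each other.

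**Figure D1:**
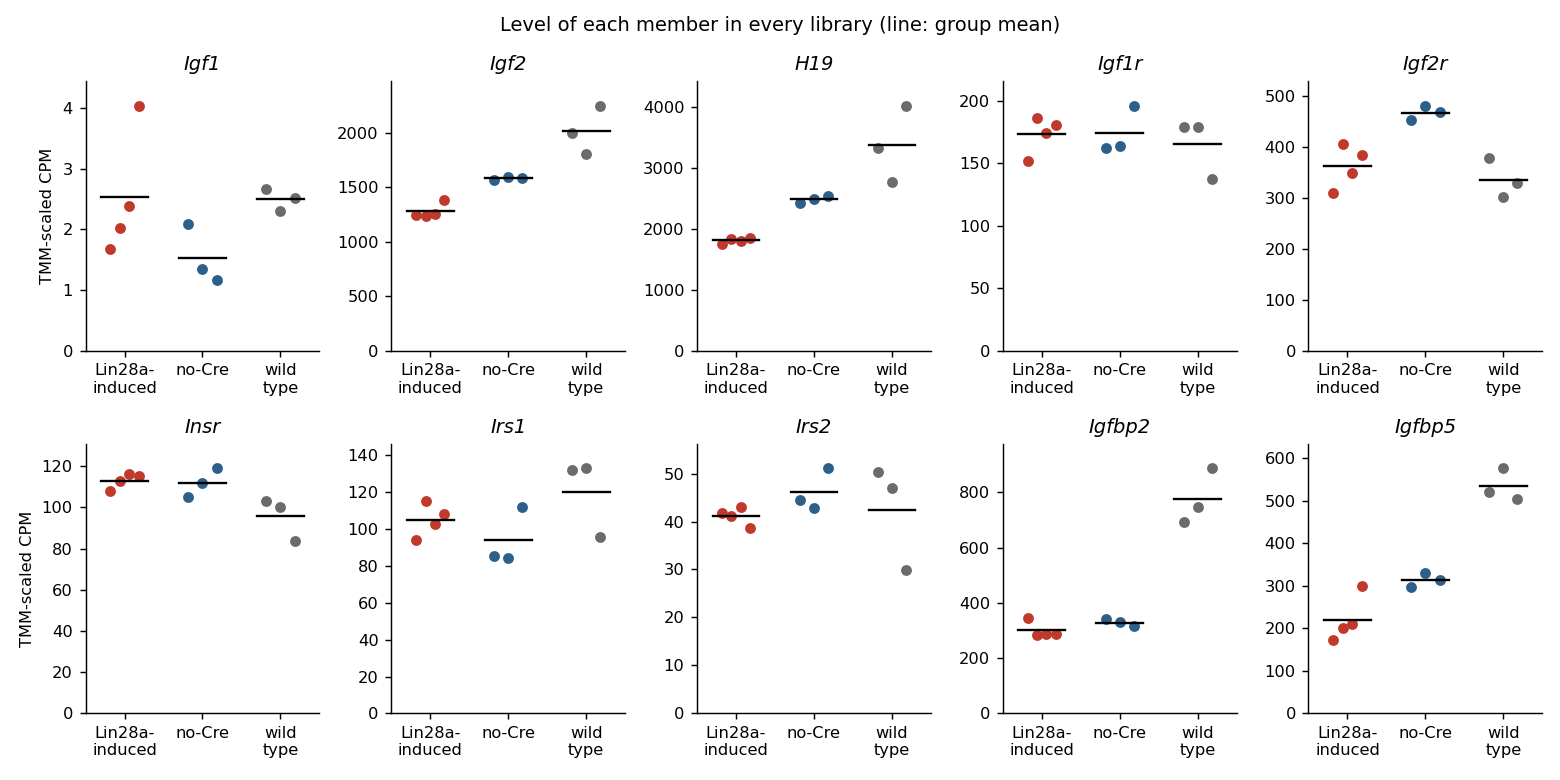
Level of each of the 10 members in every library, in TMM-scaled CPM on linear axes that start at 0, with 1 point per library and a line at the group mean (Lin28a-induced n = 4, no-Cre n = 3, wild type n = 3). H19 and Igf2 form 3 separate steps, lowest in the Lin28a-induced and highest in the wild-type libraries, while the wild-type libraries stand above all others for Igfbp2 and Igfbp5.

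H19, the maternally expressed noncoding RNA, was the most abundant member and was ordered in steps over the 3 groups. Its level was 1745, 1840.4, 1808 and 1853 CPM in Lin28a-induced replicates 2 to 5. It was 2430.2, 2488 and 2532 CPM in no-Cre replicates 6 to 8, and 2772, 4024 and 3331 CPM in wild-type replicates 1 to 3. No library of a group reached the range of another group. The spread was 48.3 CPM around a mean of 1812 in the Lin28a-induced group and 51 around 2483 in the no-Cre group, but 627 around 3375 in wild type, where replicate 2 was highest. H19 fell by 0.46 on the log2 scale from no-Cre to Lin28a-induced (SE 0.09, adjusted p = 0.0233). It was lower by a log2 fold change of -0.90 ± 0.09 (SE, adjusted p = 1.03e-05) in Lin28a-induced against wild type. It was also lower in no-Cre than in wild type, by -0.44 ± 0.10 (SE, adjusted p = 0.00383).

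Igf2, the fetal growth ligand made from the paternal copy, showed the same order of groups. Its level was 1249, 1238, 1254 and 1387 CPM in Lin28a-induced replicates 2 to 5. The no-Cre libraries stood at 1569, 1598 and 1588 CPM, and wild-type replicates 1 to 3 at 1808, 2252 and 2004 CPM. The 3 ranges did not overlap, and Lin28a-induced replicate 5 was the nearest to the no-Cre libraries. The log2 fold change was -0.31 ± 0.07 (SE, adjusted p = 0.0252) in Lin28a-induced against no-Cre, -0.66 ± 0.07 (adjusted p = 3.53e-06) in Lin28a-induced against wild type and -0.35 ± 0.07 (adjusted p = 0.00151) in no-Cre against wild type.

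The calls of H19 and Igf2 between Lin28a-induced and no-Cre libraries depended on which libraries shared the fit. With all 3 groups in the fit and any 1 of the 7 libraries left out, H19 kept a log2 fold change of -0.47 to -0.44 but missed the threshold each time (adjusted p = 0.0532 to 0.102). Igf2 passed in 1 of these 7 fits, without Lin28a-induced replicate 5 (adjusted p = 0.0345), and reached 0.136 in the others. With only the Lin28a-induced and no-Cre libraries in the fit, both passed in all 7 fits that leave out 1 library, with an adjusted p of 1.2e-06 to 0.000175 for H19 and 2.17e-05 to 0.00557 for Igf2.

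Because H19 and Igf2 share an imprinting control region, their counts were also compared within each library, where library scaling cancels. The log2 ratio of H19 to Igf2 counts was 0.48, 0.57, 0.53 and 0.42 in Lin28a-induced replicates 2 to 5. It was 0.63, 0.64 and 0.67 in no-Cre replicates 6 to 8, and 0.62, 0.84 and 0.73 in wild-type replicates 1 to 3. All 4 Lin28a-induced values lay below all 6 others, and the no-Cre and wild-type values overlapped. The group mean was 0.50 ± 0.07 (SD, n = 4) in Lin28a-induced, 0.65 ± 0.02 (n = 3) in no-Cre and 0.73 ± 0.11 (n = 3) in wild type. The Lin28a-induced mean was lower by a difference of -0.15 than the no-Cre mean and by -0.23 than the wild-type mean, each with p = 0.0571 in a two-sided exact permutation test over libraries. That is the smallest p that 4 against 3 libraries allow, and it became 0.114 when adjusted over the 6 ratio tests made. The no-Cre and wild-type ratios differed by -0.08, within the spread (exact permutation p = 0.4, adjusted 0.48).

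**Figure D2:**
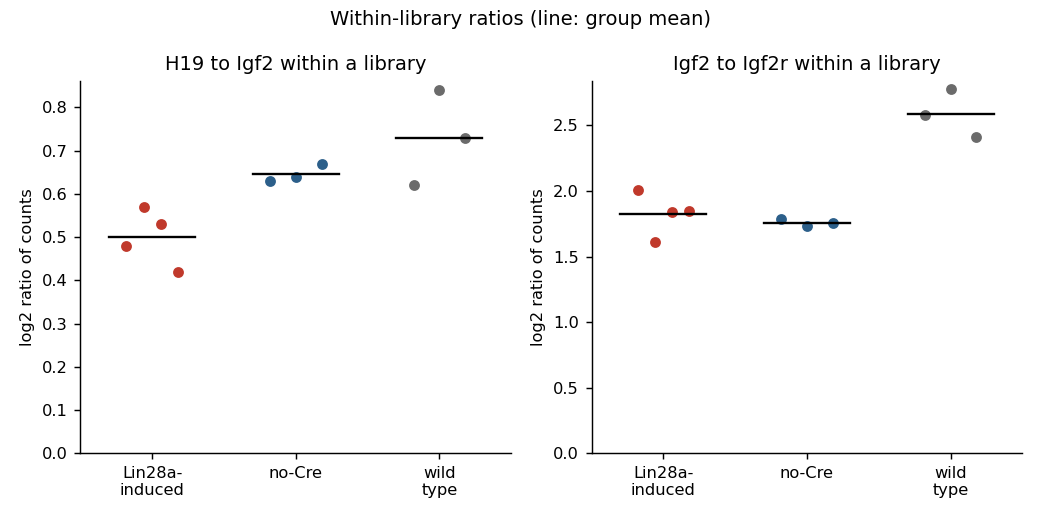
Log2 ratio of the counts of H19 to Igf2 (left) and of Igf2 to Igf2r (right) within each library, with 1 point per library and a line at the group mean. On the left the 4 Lin28a-induced points lie at 0.42 to 0.57, below the other 6, and on the right the 3 wild-type points lie at 2.41 to 2.78, above the other 7.

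Igf1, the other ligand, was close to the low end of the tested genes. Its level was 1.68, 2.03, 2.38 and 4.04 CPM in Lin28a-induced replicates 2 to 5, 2.09, 1.34 and 1.17 in no-Cre replicates 6 to 8, and 2.31, 2.51 and 2.66 in wild-type replicates 1 to 3. The Lin28a-induced range covered the wild-type range and overlapped the no-Cre range, whereas no-Cre lay below wild type throughout. None of the 3 comparisons passed: the log2 fold change was 0.72 ± 0.30 (SE, adjusted p = 0.239) in Lin28a-induced against no-Cre, 0.03 ± 0.29 (adjusted p = 0.934) against wild type, and -0.69 ± 0.32 (adjusted p = 0.1) in no-Cre against wild type. The unadjusted 95% interval of the first ran from 0.09 to 1.36, a wide range at this depth (34 to 159 counts of Igf1 per library). The value was 0.40 without Lin28a-induced replicate 5 (adjusted p = 0.542) and 1.02 without no-Cre replicate 6 (adjusted p = 0.21). Of the insulin genes, Ins1 had no count in any library and Ins2 had 1 count in each of 2 libraries, so neither was tested.

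Among the receptors, Igf2r, the clearance receptor for IGF2, was the one with a call against no-Cre. Its level was 310.4, 407, 349.8 and 384 CPM in Lin28a-induced replicates 2 to 5. It was 454, 482 and 469 CPM in no-Cre replicates 6 to 8, and 302, 329 and 378 CPM in wild-type replicates 1 to 3. The no-Cre libraries stood above all others, and the Lin28a-induced and wild-type ranges overlapped. Igf2r was lower in Lin28a-induced than in no-Cre libraries by a log2 fold change of -0.37 ± 0.09 (SE, adjusted p = 0.0474) and higher in no-Cre than in wild type by 0.48 ± 0.10 (adjusted p = 0.0018). Lin28a-induced against wild type gave 0.11 ± 0.09 (adjusted p = 0.341). The call against no-Cre was kept without Lin28a-induced replicate 3 (adjusted p = 0.0299) and missed without each of the other 6 libraries (up to 0.184). With sex as a term the adjusted p was 0.0684.

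The log2 ratio of Igf2 to Igf2r counts, the ligand over its clearance receptor, was 2.01, 1.61, 1.84 and 1.85 in Lin28a-induced replicates 2 to 5. It was 1.79, 1.73 and 1.76 in no-Cre replicates 6 to 8, and 2.58, 2.78 and 2.41 in wild-type replicates 1 to 3. The Lin28a-induced values spread around the no-Cre values, and all 7 lay below wild type. The difference of means was 0.07 between Lin28a-induced and no-Cre (exact permutation p = 0.571). It was -0.76 between Lin28a-induced and wild type (exact permutation p = 0.0571, adjusted 0.114). Between no-Cre and wild type it was -0.83 (exact permutation p = 0.1, the smallest that 3 against 3 libraries allow, adjusted 0.15).

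Igf1r, the signalling receptor for both IGFs, did not pass in any comparison. Its level was 152, 186, 174 and 180.3 CPM in Lin28a-induced replicates 2 to 5, 162, 164 and 196 in no-Cre, and 179, 137 and 179 in wild-type replicates 1 to 3. The 3 groups overlapped. The log2 fold change was -0.01 ± 0.10 (SE, adjusted p = 0.991) against no-Cre, with a 95% interval from -0.23 to 0.22. The value was 0.07 (adjusted p = 0.595) against wild type and 0.08 (adjusted p = 0.6) in no-Cre against wild type. Igf1r holds 2 let-7 matches, the most of any member, in the longest 3′ UTR of the members (7267 bases). Of all UTRs within 25% of that length, 37.7% hold a match.

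Insr, the insulin receptor, stood at 108, 113, 116 and 115 CPM in Lin28a-induced, 105, 112 and 119 in no-Cre and 100.2, 83.7 and 103 in wild-type replicates 1 to 3. The Lin28a-induced and no-Cre libraries overlapped, and the 3 wild-type libraries were the lowest. Insr was higher than in wild type by 0.24 ± 0.07 (SE, adjusted p = 0.0114) in Lin28a-induced and by 0.23 ± 0.08 (adjusted p = 0.024) in no-Cre libraries. The second call was missed without no-Cre replicate 7 (adjusted p = 0.0593), no-Cre replicate 8 (0.0944) or wild-type replicate 2 (0.0502). Lin28a-induced against no-Cre gave 0.01 ± 0.07 (adjusted p = 0.964), with a 95% interval from -0.14 to 0.16.

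The receptor substrates Irs1 and Irs2, docking proteins that link the receptors to PI3-kinase, did not pass in any of the 3 comparisons. Irs1 stood at 93.9, 115, 103 and 108 CPM in Lin28a-induced replicates 2 to 5, 85.5, 84.2 and 112 in no-Cre, and 133, 95.6 and 132 in wild-type replicates 1 to 3. Its groups overlapped throughout, with no-Cre replicate 8 and wild-type replicate 2 apart from the others of their group. The log2 fold change of Irs1 was 0.16 ± 0.13 (SE, adjusted p = 0.632) in Lin28a-induced against no-Cre, -0.20 (adjusted p = 0.247) against wild type and -0.36 ± 0.14 (adjusted p = 0.0683) in no-Cre against wild type. The first was 0.31 without no-Cre replicate 8 (adjusted p = 0.365), and passed there with only the Lin28a-induced and no-Cre libraries in the fit (adjusted p = 0.0248). The last was -0.50 and passed without no-Cre replicate 8 (adjusted p = 0.0152) and without wild-type replicate 2 (adjusted p = 0.0151). Without wild-type replicate 2, Irs1 also passed in Lin28a-induced against wild type (-0.34, adjusted p = 0.0481).

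Irs2 stood at 41.8, 41.1, 43.1 and 38.7 CPM in Lin28a-induced replicates 2 to 5, 44.5, 42.9 and 51.1 in no-Cre, and 46.9, 29.8 and 50.3 in wild-type replicates 1 to 3. Wild-type replicate 2 was the lowest of all 10 libraries. The log2 fold change of Irs2 was -0.16 ± 0.14 (SE, adjusted p = 0.648) in Lin28a-induced against no-Cre, -0.04 (adjusted p = 0.846) against wild type and 0.13 (adjusted p = 0.545) in no-Cre against wild type. Without wild-type replicate 2 the second was -0.24 and passed (adjusted p = 0.0121).

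The binding proteins showed the greatest changes of the 10 members, and these were against wild type. Igfbp2, a secreted IGF binding protein of the embryo, stood at 344, 283, 286 and 289 CPM in Lin28a-induced replicates 2 to 5. It was 340.1, 329 and 317 CPM in no-Cre replicates 6 to 8, and 748, 887 and 692 CPM in wild-type replicates 1 to 3. The 3 wild-type libraries stood well above the other 7, whose highest value was 344 CPM. Igfbp2 was lower than in wild type by a log2 fold change of -1.37 ± 0.08 (SE, adjusted p = 8.21e-08, 0.387-fold) in Lin28a-induced and of -1.24 ± 0.09 (adjusted p = 6.17e-07, 0.424-fold) in no-Cre libraries. Lin28a-induced against no-Cre gave -0.13 ± 0.09 (adjusted p = 0.507), with a 95% interval from -0.31 to 0.05.

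Igfbp5, a binding protein that also attaches to extracellular matrix, lies beside Igfbp2 on chromosome 1 (chr1:72857932-72874884, minus strand, against chr1:72824503-72852474, plus strand). It stood at 173, 199.7, 209.6 and 299 CPM in Lin28a-induced replicates 2 to 5. It was 298, 331 and 314 CPM in no-Cre replicates 6 to 8, and 576, 504 and 519.6 CPM in wild-type replicates 1 to 3. Wild type was highest throughout, and of the Lin28a-induced libraries only replicate 5 reached the no-Cre range. Igfbp5 was lower than in wild type by -1.28 ± 0.16 (SE, adjusted p = 0.000172, 0.413-fold) in Lin28a-induced and by -0.76 ± 0.17 (adjusted p = 0.00662, 0.59-fold) in no-Cre libraries. In Lin28a-induced against no-Cre the log2 fold change was -0.51 ± 0.16 (adjusted p = 0.137), and 1 library decided the call. Without Lin28a-induced replicate 5 it was -0.70 and passed (adjusted p = 0.00113). That library is 1 of the 2 female ones, and with sex as a term the adjusted p was 0.0241. Both binding proteins are high in the group where the surface ectoderm markers (454 to 591 against 148 to 175 CPM) and the mitochondrial share are high, and the part of those in the result was not tested.

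**Figure D3:**
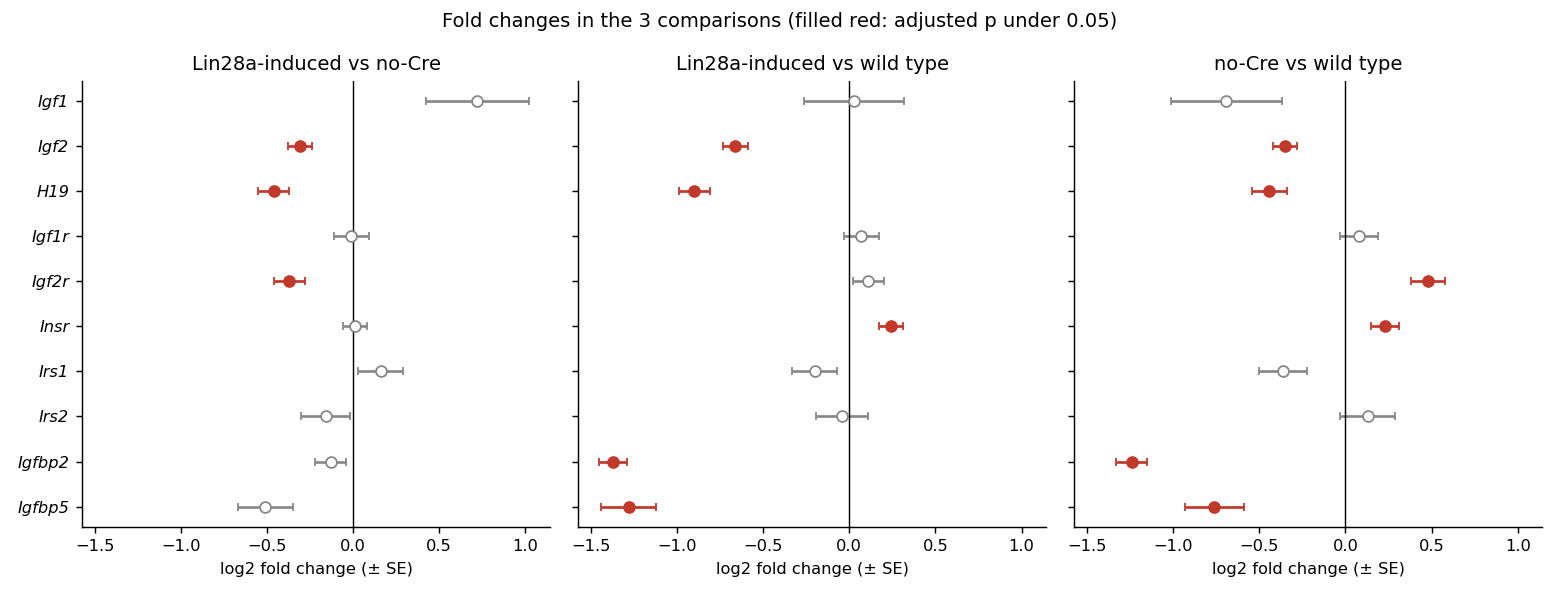
Log2 fold change of the 10 members in the 3 comparisons, with bars of 1 SE from the edgeR fit over all 10 libraries. Filled red points passed an adjusted p of 0.05: H19, Igf2 and Igf2r in the first panel at -0.46, -0.31 and -0.37, 5 members in the second and 6 in the third, where Igfbp2 is the lowest at -1.24.

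Members were compared with each other per length, as RPKM (the CPM per kilobase of the longest annotated transcript). H19 was the highest in each group, at 792 ± 21.1 (SD, n = 4) in Lin28a-induced, 1086 ± 22.3 (n = 3) in no-Cre and 1477 ± 274 (n = 3) in wild type. Igf2 and Igfbp2 followed, and their order differed between groups. In wild type Igfbp2 was at 593 ± 76.9 RPKM and Igf2 at 428 ± 47.2, with ranges that did not overlap. In no-Cre Igf2 was the higher, at 336 ± 3.11 against 252 ± 8.78 RPKM, again without overlap. In Lin28a-induced Igf2 was at 272 ± 14.9 and Igfbp2 at 229.9 ± 22.2 RPKM, where the highest Igfbp2 library (263) passed the lowest Igf2 library (262). Over all 10 libraries the means were 346 for Igfbp2 and 338 for Igf2, and with the summed length of all annotated exons 244 and 279, so this order also depends on the length used. With that summed length the wild-type ranges overlapped (374 to 480.2 for Igfbp2 and 316 to 394 for Igf2). Those of the Lin28a-induced and of the no-Cre libraries did not. Reads of Igf2 could also have been split with Gm49394, as given above.

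The remaining members were far lower per length. Igfbp5 stood at 88.8 ± 6.31 RPKM in wild type, above Igf2r at 37.9 ± 4.33, but in no-Cre (52.4 ± 2.78 and 52.7 ± 1.55) and in Lin28a-induced libraries (36.7 ± 9.09 and 40.8 ± 4.73) their ranges overlapped. Igf1r came next at 14.4 to 15.2 RPKM as group means. Insr and Irs1 followed at 10.2 to 13.1, with ranges that overlapped each other in each group. In wild type Irs1 overlapped Igf1r as well. Irs2 was at 6.51 to 7.3 RPKM. Igf1 was at 0.217 to 0.359 RPKM, and Igf2 exceeded it in every library.

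**Figure D4:**
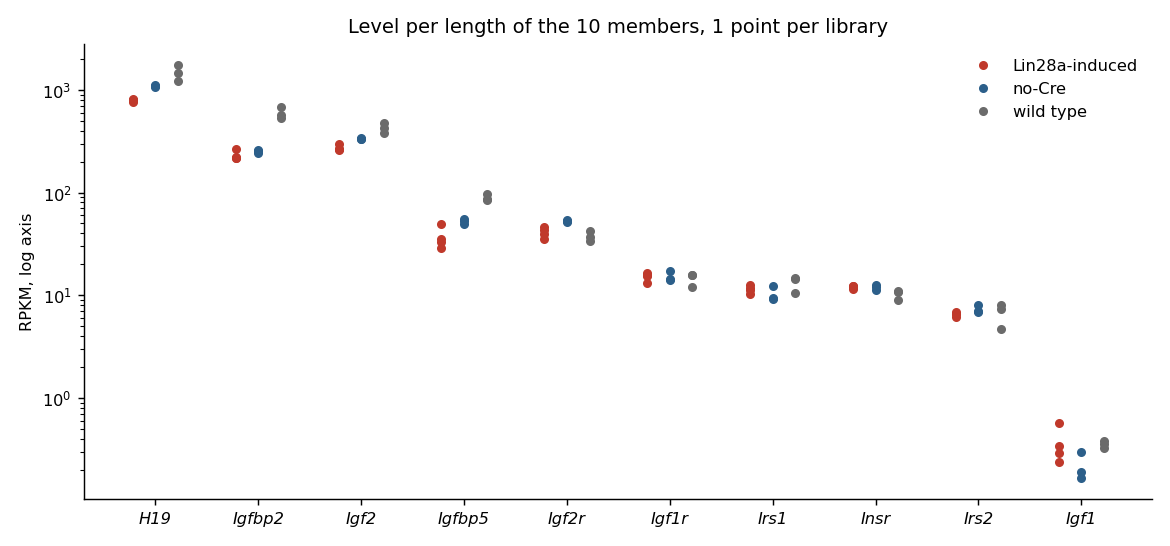
Level of each member per length (RPKM, logarithmic axis) in the Lin28a-induced, no-Cre and wild-type libraries, with 1 point per library. H19 lies highest in each group and Igf1 lowest, and Igfbp2 lies above Igf2 in wild type and below it in the no-Cre libraries.

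The genes whose pattern over the 10 libraries was most like that of H19 or Igf2 were taken from 9408 tested and named genes with a mean of at least 10 CPM, by Pearson's r of log2 CPM. For H19 they were Capn5 (r = 0.992), Igf2 (0.988), Vps41 (0.988), Nme7 (0.984) and Cog6 (0.983). For Igf2 they were H19 (0.988), Vps41 (0.984), Fmod (0.982), Cog6 (0.982) and Capn5 (0.981). Over the 7 libraries without wild type, r between H19 and Igf2 was 0.960 and the others were 0.934 to 0.986. The libraries are the same for each gene and fall into 3 groups, so r mostly describes the order of the groups: Fmod, for example, averaged 21.1, 28.7 and 45.8 CPM in Lin28a-induced, no-Cre and wild type. No test belongs to these values.

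The other genes of the pathway were taken from lists by role, 58 genes in all, of which 48 were tested. These lists, too, were chosen with earlier results of these data known. Between Lin28a-induced and no-Cre libraries 2 rose, 1 fell and 45 did not pass, where 1.76% of all tested genes were higher and 1.15% lower. The median log2 fold change was -0.03 over the lists and -0.00 over all tested genes. The fall was Igfbpl1, which encodes a protein like the IGF binding proteins, at 11, 11.2, 9.25 and 9.4 CPM in Lin28a-induced and 13.3, 17.1 and 17.1 in no-Cre libraries (log2 fold change -0.63 ± 0.11, SE, adjusted p = 0.00756). One rise was Igf2bp1, whose RNA-binding product binds Igf2 messages among others, at 551, 645, 670.3 and 649 CPM against 477, 448 and 442 (0.46 ± 0.08, adjusted p = 0.0103). The other was Pik3r3, a regulatory subunit of PI3-kinase, at 62.8, 62.5, 70 and 73.1 CPM against 53.5, 53.3 and 49.5 (0.37 ± 0.07, adjusted p = 0.0112). Pik3r3 was also lower in no-Cre than in wild type (-0.30, adjusted p = 0.00492), while Lin28a-induced against wild type did not pass (0.07, adjusted p = 0.413). Between Lin28a-induced and no-Cre libraries the ranges of each of these 3 genes did not overlap. The same held for 17 of the 48 tested genes of the lists and for 23.4% of all tested genes. The 3 genes were named for their small p, so this adds no support. Each missed the threshold without no-Cre replicate 7 (adjusted p = 0.0636 for Igfbpl1, 0.0775 for Igf2bp1 and 0.063 for Pik3r3). Each also missed it without no-Cre replicate 8 (0.0601, 0.0741 and 0.0817 in the same order). None of the 9 tested adaptors (none at an unadjusted p under 0.05 either) and 1 of the 23 genes of the PI3K, AKT and mTOR list passed, against 2.91% of all tested genes.

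Against wild type many more of these genes passed, as did many genes in general. In Lin28a-induced libraries 21 of 48 were higher and 12 lower, where 24.3% of all tested genes were higher and 25.0% lower. In no-Cre libraries 17 were higher and 10 lower, where 21.0% of all tested genes were higher and 21.4% lower. Of the 9 other binding proteins and their regulators, 2 were higher and 4 lower in Lin28a-induced libraries, and 1 higher and 3 lower in no-Cre libraries. Of the 9 adaptors, 6 were higher and 1 lower in each. Of the 23 PI3K, AKT and mTOR genes, 9 were higher and 5 lower in Lin28a-induced, and 8 higher and 4 lower in no-Cre libraries. Of the 7 tested genes of the Igf2 and H19 locus and its RNA regulators, 4 were higher and 2 lower in Lin28a-induced, and 2 higher and 2 lower in no-Cre libraries.

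The greatest of the named changes was that of Htra1, a secreted protease that cleaves IGF binding proteins, at 30.4 ± 3.93 CPM (SD, n = 3) in wild type, 8.21 ± 1.22 (n = 4) in Lin28a-induced and 7.82 ± 0.369 (n = 3) in no-Cre libraries. Its log2 fold change against wild type was -1.89 (adjusted p = 6.82e-08) and -1.96 (adjusted p = 1.70e-07). Igfbpl1 was lower than in wild type as well (-1.16 and -0.53). The adaptor gene Gab1 (-0.41 and -0.42) and the PI3-kinase subunit genes Pik3cb (-0.53 and -0.35) and Pik3r1 (-0.45 and -0.63) were lower in both. Rptor, whose product is a core part of mTOR complex 1 (0.36 and 0.45), and Tsc2, a brake on mTOR complex 1 (0.28 and 0.37), were higher in both. Plagl1, an imprinted transcription factor gene, was at a mean of 204 CPM in wild type, 287 in Lin28a-induced and 323 in no-Cre libraries, with ranges that lay above wild type in both, with log2 fold changes of 0.50 and 0.67. Igf2bp1 was higher in Lin28a-induced (0.64, adjusted p = 4.21e-05) and at 0.17 in no-Cre libraries (adjusted p = 0.132), and Igf2bp2 was higher in both (0.20 and 0.31). Igf2os was lower in both (-0.62 and -0.43), as was Igf2, with which it may share reads.

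**Figure D5:**
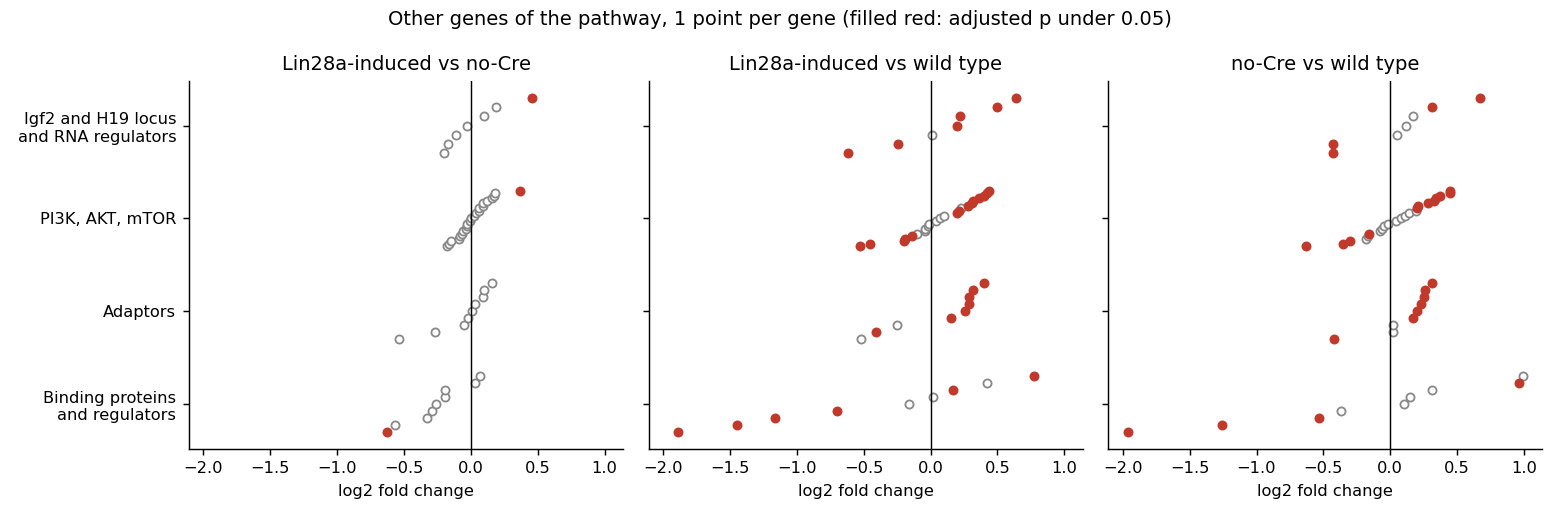
Log2 fold change of the 48 tested genes of the other pathway lists in each of the 3 comparisons, by list, with 1 point per gene and filled points for an adjusted p under 0.05. In Lin28a-induced against no-Cre libraries 3 points are filled, and in the comparisons with wild type 33 and 27 points are filled, with Htra1 lowest at -1.89 and -1.96.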

How the data were processed

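Total RNA of microdissected tail bud was sequenced in 10 libraries as stranded 75-base single reads, per the labels' protocols. The deposited table holds raw read counts per gene symbol with no normalization. Per the submitters' processing notes, the authors used STAR 2.3.1z4, featureCounts and the mm10 build, and DESeq2 is named without a step. For the counting, the annotation release and strand setting were not given in the sources used here. After filterByExpr and TMM scaling, counts were fitted in edgeR 4.0.16 (quasi-likelihood, robust spread, 1 coefficient per group, all 10 libraries, R 4.3.3). P-values were adjusted over the 16340 tested genes of a comparison (threshold 0.05). The SE is the size of a log2 fold change over the root of its F statistic. Log2 CPM used a prior count of 2. The test was checked on simulated counts, where it was only required to find most of the 2-fold changes, so the check does not bear on smaller ones. Gene models and 3′ UTRs are those of GENCODE M21, and mature microRNAs those of RefSeq. The members and the pathway and marker lists were chosen with earlier results of these data known. The named genes are the 10 members, Lin28a, up to 8 pathway genes per comparison with the smallest p past the threshold, and the 5 genes most like H19 and Igf2; 1 gene the rule names is not reported here. Airn, Gm49394, Gm9747, Mir675, Ins1 and Ins2 are named as overlapping or related genes. Alternatives were DESeq2 size factors in edgeR, total counts only, DESeq2 1.42.0, limma-voom (limma 3.58.1), no filter, 1 CPM in 3 libraries, only the 2 groups compared, sex as a term, no globin and mitochondrial genes, a spread that is not robust, a replicate block and leaving out each library. Leaving out libraries with only 2 groups in the fit was chosen after the data were examined.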

Additional observations from a re-analysis of the deposited data

Results flagged for a closer look

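Of 12 sets of 4 Lin28a-induced values (the 10 members and the ratios H19 to Igf2 and Igf2 to Igf2r), 2 held a library far from the others by Dixon's 95% criterion, which divides the gap to the nearest library by the whole range. For Igf2 this ratio was 0.893, with replicate 5 at 1387 CPM and the others at 1238 to 1254. For Igfbp2 it was 0.902, with replicate 2 at 344 CPM and the others at 283 to 289. Chance flags about 1 in 20 such groups. Without replicate 5 the log2 fold change of Igf2 against no-Cre was -0.35 (adjusted p = 0.0345). Without replicate 2 that of Igfbp2 was -0.20, which missed the threshold with all 3 groups in the fit (adjusted p = 0.23) and passed with only the Lin28a-induced and no-Cre libraries (adjusted p = 0.00369).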

How the results depend on the processing

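The number of the 10 members called between Lin28a-induced and no-Cre libraries was 3, and 2 to 3 under the 10 settings that keep all libraries compared, 0 to 2 without 1 library, and 2 to 4 without 1 library and with only these 2 groups in the fit. They were not always H19, Igf2 and Igf2r: Igfbp5 was among them with sex as a term and without Lin28a-induced replicate 5, and Igfbp2, Igfbp5 or Irs1 in 3 of the last 7 fits. Igf2r missed the threshold with total counts only (adjusted p = 0.0511), with sex as a term (0.0684) and with a spread that is not robust (0.0528). Over all genes the number called was 476, against 982 with DESeq2, 1791 with only the 2 groups, 303 with sex as a term and 104 to 304 without 1 library, and the cause was not tested. The share of calls that were higher was 60.5%, and 70.5% with total counts only. Against wild type, 5 members were called in Lin28a-induced libraries (5 to 7 without 1 library) and 6 in no-Cre libraries (5 to 7). In no-Cre against wild type, Irs1 passed with DESeq2 (adjusted p = 0.0281), limma-voom (0.0479) and a spread that is not robust (0.0474), and Insr was missed with only the 2 groups (0.0624). With summed exon length, 6 of 10 members kept their place in the order of levels, as Igfbp2 and Igf2, and Igf1r and Irs1, changed places.

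Log2 fold changes that changed sign had been 0.13 or nearer to 0, and missed the threshold on the other side of 0. In Lin28a-induced against no-Cre libraries Igf1r was 0.01 with total counts only and -0.06 to 0.09 without 1 library (0.05 without Lin28a-induced replicate 2), and Insr -0.03 to 0.06. With only these 2 groups the ranges were the same, and Insr was -0.00 without replicate 4 or 5. In Lin28a-induced against wild type, Igf1 was -0.02 with limma-voom, -0.14 with sex as a term and -0.29 to 0.18 without 1 library, Irs2 was 0.00 with limma-voom and -0.24 to 0.10 without 1 library, and Igf1r was -0.05 to 0.13. In no-Cre against wild type without 1 library Igf1r was -0.04 to 0.14 (-0.01 without no-Cre replicate 8) and Irs2 -0.07 to 0.27. The 6 ratio differences kept their sign without any 1 library.

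The replicate numbers 2 and 3 occur in both the Lin28a-induced and wild-type groups, but the labels do not tie them, and deviations of same-numbered libraries correlated at -0.03 and -0.08. A fit of only these 4 libraries with a replicate block called 4 members and 3596 genes, against 8050 genes in the fit of all 10 libraries. Insr was missed (adjusted p = 0.172), Igf1 was at -0.49 and Irs2 at 0.09. The block and the smaller number of libraries cannot be told apart here.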
